A study of Homo sapiens with 3 samples.

Results

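The enzymes that carry glucose from glucose-6-phosphate to pyruvate were followed through 2-color arrays of a pair of glioma clones. They were chosen by name: of 10 enzyme genes listed, 9 were found through the RefSeq transcript of an array probe (GAPDH, ENO1, ENO2, ALDOC, TPI1, PGK1, PGAM1, PKM and GPI), out of 25006 genes named in the same way. Together they have 10 probes, 2 of them for PGAM1, and ALDOA matched no probe. The rule for membership uses no measured value.

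U87WT 5 (U87WT) is a clone of the glioblastoma line U-87MG that carries GFP-IGF1R, the type 1 IGF receptor fused to GFP, which the labels place in the nucleus. U87Mut 5 (U87Mut) carries the fusion GFP-IGF1R1025x-1100x-1120x, in which lysines at these positions were changed to arginine, and its receptor is labeled non-nuclear. Each line is 1 clone, obtained by stable transfection and selection with geneticin, and both keep the receptor of the parental line. Each clone was cultured for 24 h in serum-free medium (FBS-free), with 50 nM IGF1, or with 50 nM IGF1 and OSI906, which blocks the kinase activity of IGF1R and of the insulin receptor. The dose of OSI906 is 0.5 μM in the sample's title and 500 μM in its medium label. A medium with 10% FBS is also given for every sample, the content in which the authors maintained the line. In separate experiments the authors saw the receptor of U87WT enter the nucleus after IGF1, and OSI906 inhibited this. Where the receptor lay in the cells of each array was not measured here. There were 3 arrays, 1 for each condition, with U87WT RNA in Cy5 and U87Mut RNA in Cy3 on every one. With 1 array a condition and 1 dye for each clone, a condition and its array, or a clone and its dye, cannot be told apart.

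Glycolysis splits a molecule of glucose into pyruvate and yields ATP and NADH without oxygen. GPI isomerizes the sugar phosphate, aldolases (ALDOA, ALDOC) cleave it, TPI1 interconverts the triose phosphates, GAPDH oxidizes glyceraldehyde 3-phosphate and makes NADH, PGK1 and pyruvate kinase (PKM) make ATP, PGAM1 moves the phosphate group, and enolases (ENO1, ENO2) form phosphoenolpyruvate. Glioma cells run this pathway at a high rate even with oxygen, several of its genes are known targets of the hypoxia factor HIF1, and GAPDH is widely used as a reference gene because it is abundant.

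The labels were checked first. The 8 markers of U87 and mesenchymal glioma cells were well above background on all 3 arrays, while of 6 glial markers GFAP, S100B, SOX10 and SOX2 were above it on none. Of the other markers, 3 of 4 neuronal, 1 of 2 leukocyte, 2 of 3 endothelial and 2 of 3 epithelial ones were above it on every array. The log2 ratio of the IGF1R probe, U87WT over U87Mut, was 0.073, 0.23 and 0.089 on the FBS-free array, the IGF1 array and the array of IGF1 plus OSI906, an order kept for all triplets below, and whether this probe lies within the transfected sequence was not tested. Of the 58201 probes, 52.8%, 50.1% and 52.4% had both dyes marked as well above background, and 0 spots were saturated. In bulk RNA, fewer cells of a type and less RNA per cell cannot be told apart.

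The stretches ahead of the genes ENO1, ENO2, TPI1 and PGK1 are shown because the transcripts of the first 3 were lower in U87WT over the arrays and PGK1 lay on the same side, as described below. They come from RefSeq (GRCh38.p14), run 5′ to 3′ on the strand of the gene, and end where the annotated gene starts. Capitals mark ACGTG on either strand, a form of the core of the sequence that HIF1 binds. Other forms, such as GCGTG, were not searched for, so a stretch without capitals can still hold such a core.
ENO1 (chr1:8878687-8878936, reverse strand): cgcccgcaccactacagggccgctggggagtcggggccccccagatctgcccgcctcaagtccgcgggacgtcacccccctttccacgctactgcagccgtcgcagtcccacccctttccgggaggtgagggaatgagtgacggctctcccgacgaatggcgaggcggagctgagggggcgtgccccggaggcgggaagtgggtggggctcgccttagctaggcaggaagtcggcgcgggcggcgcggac
ENO2 (chr12:6914330-6914579, forward strand): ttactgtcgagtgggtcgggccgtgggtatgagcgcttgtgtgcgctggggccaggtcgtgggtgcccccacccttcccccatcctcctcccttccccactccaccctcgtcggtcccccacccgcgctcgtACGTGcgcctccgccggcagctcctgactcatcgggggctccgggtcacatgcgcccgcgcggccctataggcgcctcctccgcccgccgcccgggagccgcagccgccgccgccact
TPI1 (chr12:6867281-6867419, forward strand): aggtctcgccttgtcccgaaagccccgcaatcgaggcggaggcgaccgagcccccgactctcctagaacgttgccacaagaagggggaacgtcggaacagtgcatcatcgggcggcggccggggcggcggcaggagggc
PGK1 (chrX:78103998-78104247, forward strand): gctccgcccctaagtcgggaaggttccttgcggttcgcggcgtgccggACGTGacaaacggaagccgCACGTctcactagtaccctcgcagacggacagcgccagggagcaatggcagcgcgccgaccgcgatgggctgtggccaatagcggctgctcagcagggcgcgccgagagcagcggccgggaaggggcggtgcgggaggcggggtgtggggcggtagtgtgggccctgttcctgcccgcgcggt

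RefSeq windows of 250 bases before a transcript start were found for 9 of the 9 measured genes, 10 windows in all, since TPI1 has 2. ACGTG, searched on both strands, was in 6 of the 10 windows and in 18.5% of all 35116 windows of this length. The windows without it were those of ENO1, PGAM1, PKM and the upstream start of TPI1. The longer CACGTG, which contains ACGTG and reads the same on both strands, was in the windows of GAPDH and ALDOC and in 6.34% of all windows. The 3 genes lower in U87WT thus did not share these letters, which describes only the windows. The windows of GAPDH, PGAM1, PKM and GPI lie inside the annotated gene and are not shown.

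The scanner marked the signal of all 10 probes as well above background on each array and for each dye, and 1 of them was dim. ALDOC had a median spot brightness of 220, 206.5 and 195 in Cy5 and 214, 123 and 153 in Cy3, against a local background of 20 to 22. GAPDH had 41730, 42501 and 36594 in Cy5 and 31678, 21715 and 25866 in Cy3. ENO2, the enolase of neurons, had 1697, 1721 and 1037 in Cy5 and 2065, 1393 and 1181 in Cy3. Before normalization, the Cy3 brightness of each of the 10 probes was highest on the FBS-free array. Different probes differ in how well they bind, so their brightness does not rank the genes.

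None of the 9 enzymes reached a log2 ratio of 0.5 in size, 1.41-fold, on any array. Of all probes, 4.61%, 4.38% and 4.24% did, so a count of 0 among 9 is near the background. With the background fitted on all spots, GAPDH (0.58) and ENO2 (-0.57) passed the limit after IGF1. With arrays centered on their median 6 enzymes were above it there. The share of all probes past the limit was not taken under these alternatives. The median of the 9 ratios was -0.036, 0.036 and -0.053, against about 0 over all probes and 0.099, 0.059 and 0.078 over the 963, 956 and 967 probes with a mean log2 brightness of 13 or more. With median centering the median after IGF1 was 0.60.

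**Figure D1:**
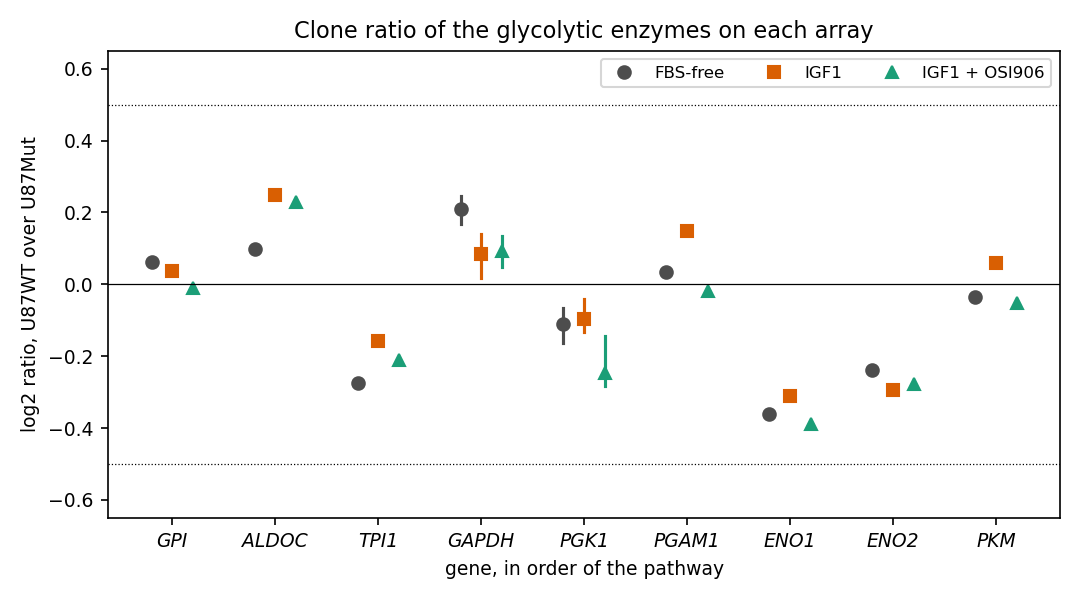
Log2 ratio of U87WT over U87Mut for each enzyme on each array, in the order of the pathway; bars span the lowest to the highest spot where a probe has several spots, and dotted lines mark 0.5 in size. No enzyme reaches a dotted line, while ENO1, ENO2, TPI1 and PGK1 lie below 0 and GAPDH and ALDOC above 0 on all 3 arrays.

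ENO1, the enolase found in most tissues, had log2 ratios of -0.36, -0.31 and -0.39, so U87WT was the lower clone on every array. Over the 3 arrays the mean was -0.35 ± 0.036 (SE, n = 3), with an adjusted p of 0.00986 by limma (lmFit and eBayes, two-sided, Benjamini-Hochberg over all 58201 probes) and a 95% confidence interval from -0.45 to -0.26. ENO2 had -0.24, -0.29 and -0.28. Its mean was -0.27 ± 0.035 (SE, n = 3; adjusted p = 0.0168 by limma; interval from -0.36 to -0.18). TPI1 had -0.27, -0.16 and -0.21. Its mean was -0.21 ± 0.040 (SE, n = 3; adjusted p = 0.0430 by limma; interval from -0.32 to -0.11).

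These 3 of 9 genes, each with 1 probe of 1 spot on each array, were called lower in U87WT and 0 were called higher. By the same test, 6.90% of all 25006 genes were lower and 7.29% higher when each gene was taken by its brightest probe, and 4.30% and 4.47% of the probes were. Among the 963, 956 and 967 probes with a mean log2 brightness of 13 or more, 89 were lower and 240 higher. In limma at an unadjusted p under 0.05, 12465 of the 58201 probes would pass. The arrays of this test are different conditions and serve as the only replicates, and a response to treatment enters the error. The calls rest on few arrays: without the FBS-free array, or without the array with OSI906, none of the 3 genes was called, with adjusted p between 0.0612 and 0.188 in the first case and between 0.0803 and 0.197 in the second, whereas without the IGF1 array all 3 were.

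The 3 calls were also lost when the background model was fitted on all spots, with adjusted p of 0.460 for ENO1, 0.177 for ENO2 and 0.701 for TPI1. When arrays were centered on their median in place of loess, the mean was -0.024 for ENO1 (adjusted p = 0.985 by limma) and -0.18 for ENO2 (adjusted p = 0.828 by limma), and that of TPI1 reversed to 0.10.

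PGK1 had 10 spots on each array, of which 1 was left out in FBS-free medium for its flag. Its ratio was -0.11, -0.096 and -0.25. The spots ran from -0.16 to -0.065, from -0.13 to -0.041 and from -0.28 to -0.14. The highest spots with OSI906 overlapped the lowest ones in FBS-free medium, and no spot of any array was above 0 in this fit, whereas with the background fitted on all spots the mean after IGF1 was 0.18. The mean of the arrays, -0.15 ± 0.045 (SE, n = 3), did not pass the test (adjusted p = 0.143 by limma; interval from -0.27 to -0.032). Spots of 1 array share 1 hybridization and are not replicates of a condition.

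GAPDH was the enzyme with the highest ratio in FBS-free medium, 0.21, and had 0.083 after IGF1 and 0.094 after IGF1 with OSI906. Its 10 spots ran from 0.17 to 0.25, from 0.016 to 0.14 and from 0.048 to 0.13, with SDs of 0.030, 0.042 and 0.029. In this fit the spots in FBS-free medium all lay above those of both other arrays, which overlapped each other. With the background fitted on all spots, GAPDH was at 0.23 in FBS-free medium and 0.58 after IGF1. Every spot after IGF1 then lay above those in FBS-free medium. The median spot SD of the 274 probes of this kind that were well above background was 0.045, 0.050 and 0.048. The difference of -0.13 from the FBS-free to the IGF1 array is thus larger than the spread of spots, but its sign depends on the fit. The SD of a single ratio, from the difference between the FBS-free and OSI906 arrays over 27677 probes marked well above background on all arrays, was 0.143. It mixes noise with treatment response and leaves the IGF1 array out. The mean of 0.13 ± 0.042 (SE, n = 3) did not pass the test (adjusted p = 0.171 by limma; interval from 0.019 to 0.24).

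The GAPDH ratio was set beside that of probes of like brightness. Among the 112, 109 and 125 probes in its half-unit bin of log2 brightness, the median ratio was 0.21, 0.19 and 0.095. GAPDH differed from it by -0.00060, -0.11 and -0.0011. Its log2 brightness lay near the bin edge at 15 on each array. Across that edge the bin medians were 0.14, 0.059 and 0.25. ENO1 differed by -0.37, -0.30 and -0.40 from the median of its bin, which was 0.011, -0.0087 and 0.012. TPI1, in the same bin, differed by -0.29, -0.15 and -0.22 from it, and ENO2 by -0.19, -0.30 and -0.25 from the median of its own. GAPDH thus lay at or between the medians of the bins on either side of 15 on each array. The 3 lower genes sat below the median of their own bin on all arrays.

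ALDOC, the aldolase typical of brain, had log2 ratios of 0.099, 0.25 and 0.23, the highest of the enzymes on the arrays with IGF1 in this fit. The mean was 0.19 ± 0.045 (SE, n = 3; adjusted p = 0.0783 by limma; interval from 0.075 to 0.31). With the background fitted on all spots, ALDOC was at 0.0045 after IGF1. GPI had 0.063, 0.036 and -0.0093. PKM had -0.036, 0.059 and -0.053. The means of these genes were 0.030 ± 0.036 for GPI and -0.010 ± 0.040 for PKM (SE, n = 3; adjusted p of 0.718 and 0.925 by limma), with intervals from -0.063 to 0.12 and from -0.11 to 0.094.

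The probes of PGAM1 disagreed. The brighter one had 0.035, 0.15 and -0.018, and the dimmer one -0.36, -0.040 and -0.37. Their means, 0.055 ± 0.046 and -0.26 ± 0.077 (SE, n = 3), lay on opposite sides of 0, and neither passed the test (adjusted p of 0.589 and 0.145 by limma). Both gave their highest ratio after IGF1 here, but with the background fitted on all spots the dimmer one had its lowest there, -0.39.

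**Figure D2:**
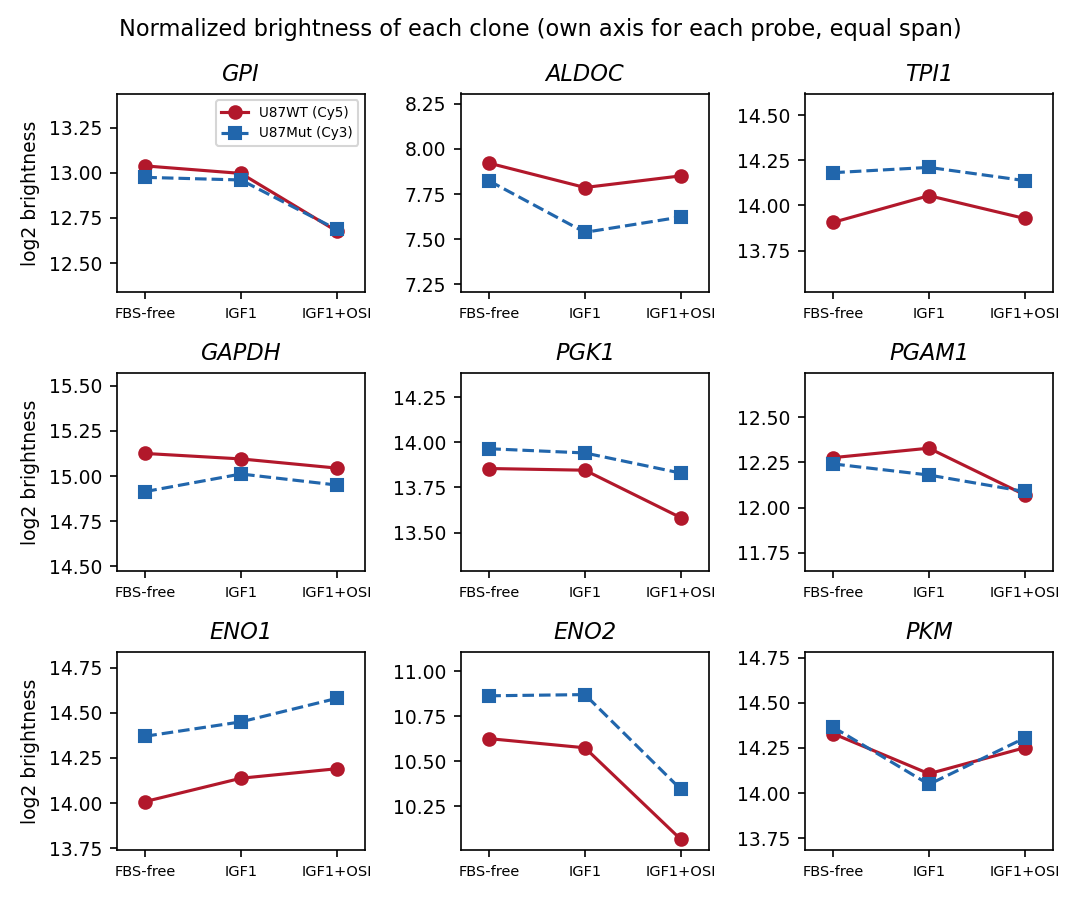
Normalized log2 brightness of each enzyme's brightest probe in U87WT (red circles, Cy5) and U87Mut (blue squares, Cy3) on the FBS-free, IGF1 and IGF1 with OSI906 arrays; each panel has its own level and a span of 1.1. The lines of ENO1, ENO2 and TPI1 stay apart on all arrays with U87Mut on top, those of GPI and PKM lie on each other, and ENO2 is lower with OSI906 in both clones.

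The response of each clone was taken as the difference in normalized log2 brightness between arrays, which has no test with 1 array a condition. From FBS-free medium to IGF1, no enzyme passed 0.5 in either clone, where 2.03% of all probes did in U87WT and 1.02% in U87Mut. The median of the 9 enzymes was -0.030 in U87WT and -0.014 in U87Mut. These medians were -0.29 and -0.27 without normalization between arrays and 0.38 and -0.41 with median centering. PKM was the widest in both clones, at -0.22 in U87WT and -0.32 in U87Mut, and ALDOC was at -0.13 and -0.28. TPI1 was at 0.15 and 0.029, and ENO1 at 0.13 and 0.079. GAPDH was at -0.030 and 0.097, and its spots on the arrays overlapped in each clone: those of U87WT reached 15.27 without IGF1 and 15.30 with it, and their SDs were 0.10 and 0.12 over 10 spots.

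From IGF1 to IGF1 with OSI906, ENO2 was the enzyme past 0.5, at -0.51 in U87WT and -0.52 in U87Mut. Of all probes, 3.25% passed this limit in U87WT and 1.18% in U87Mut. Its difference from FBS-free medium was -0.56 and -0.52, where 1.94% and 0.552% of all probes passed the limit. ENO2 rests on 1 spot on each array and lies close to the limit. It was at -0.47 and -0.48 without normalization between arrays and at -0.34 and -0.63 with the background fit on all spots. GPI followed at -0.32 and -0.27. PGK1 was at -0.26 and -0.11, and PGAM1 at -0.26 and -0.091. PKM was at 0.14 and 0.26, ENO1 at 0.053 and 0.13, and ALDOC at 0.064 and 0.085. TPI1 was at -0.13 and -0.073. GAPDH, at -0.051 and -0.061, had the smallest difference in each clone in this fit. With the background fitted on all spots it was at -0.26 in U87WT and 0.23 in U87Mut. Median spot SDs of brightness were 0.12, 0.16 and 0.14 on the 3 arrays. Both clones of a condition share the same spots, so a spot that took up more of both dyes moves both clones alike.

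**Figure D3:**
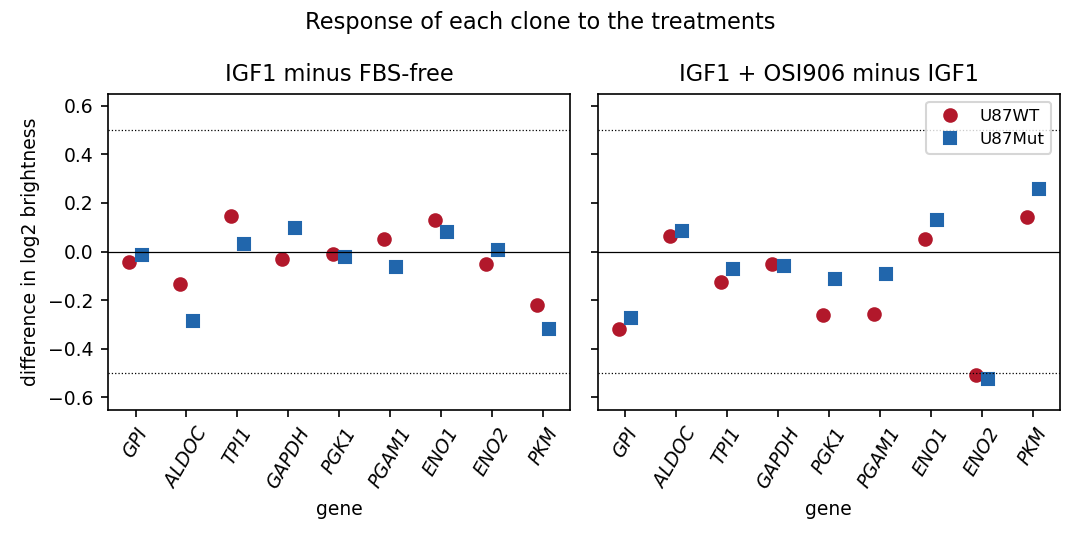
Difference in normalized log2 brightness for U87WT (circles) and U87Mut (squares), IGF1 minus FBS-free on the left and IGF1 with OSI906 minus IGF1 on the right; dotted lines mark 0.5 in size. Only ENO2 passes a line, at -0.51 and -0.52 on the right.

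The values of the IGF1 array depended on how its background was fitted. Its local background in Cy5 reached 66985, against 373 and 45 on the others, and 572 spots were flagged as not uniform. With all spots in the normexp fit, which models the background as normal noise, the SD of the Cy5 background was 701. It was 1.32 with the flagged spots left out, the fit used here. On the IGF1 array GAPDH was at 0.58 with all spots and at 0.083 without the flagged ones. ENO1 was at 0.044 and -0.31, TPI1 at 0.17 and -0.16, PGK1 at 0.18 and -0.096, and PKM at 0.37 and 0.059. ENO2, ALDOC and PGAM1 moved the other way with all spots, to -0.57 from -0.29, to 0.0045 from 0.25 and to 0.093 from 0.15.

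The same shift ran through all probes by brightness. Probes of log2 brightness 15 to 15.5, where GAPDH lies, had a median ratio of 0.76 with all spots (113 probes) and 0.19 without the flagged ones (109 probes). At 10 to 10.5 the medians were -0.35 and 0.00086. Past 15.5 the median was still 0.43 (70 probes) and past 16 it was 0.63 (29 probes) without the flagged spots. The ratios that the authors deposited equal a normexp fit on all spots with an offset of 20 followed by loess, within 0.0001 for 58341 of 58341 rows on each array, and GAPDH is at 0.71 there after IGF1. The ratios of the scanner software put GAPDH at -0.023, -0.088 and -0.12. The sign of the GAPDH ratio thus depends on the processing.

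**Figure D4:**
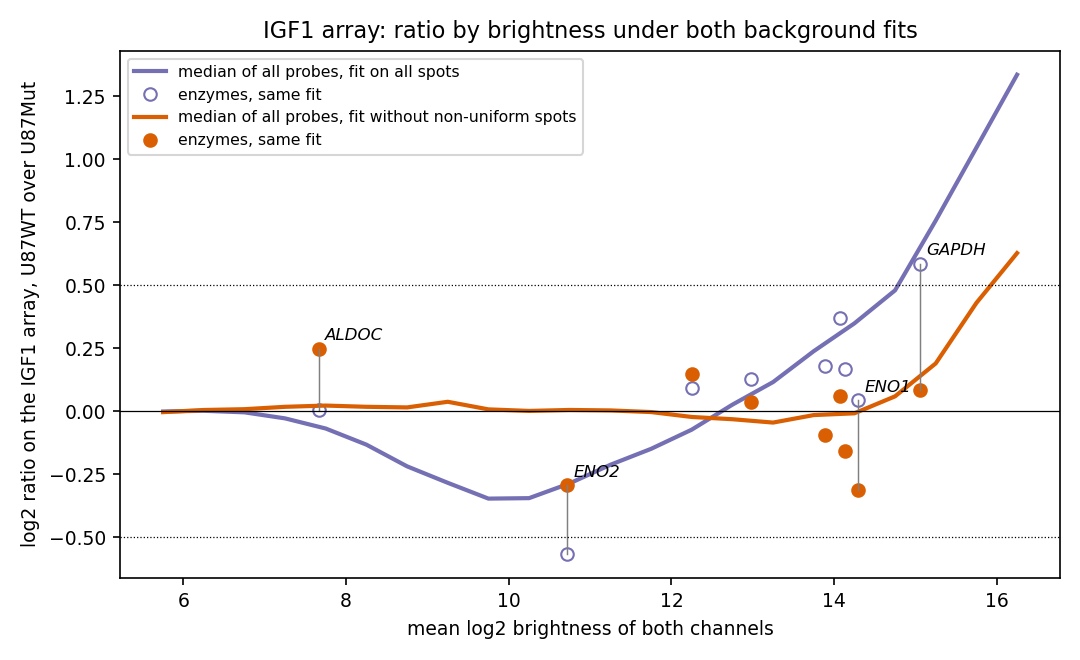
Log2 ratio on the IGF1 array against the mean log2 brightness of both channels: lines give the median of all probes in half-unit bins of each fit's own brightness, and circles the 9 enzymes (filled, fit without flagged spots; open, fit on all spots, drawn at the brightness of the first fit). GAPDH goes from 0.083 without the flagged spots to 0.58 with all spots, and the line of the fit on all spots climbs with brightness past 10.

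Other genes of glucose metabolism were taken from a list of 30. The median of their ratios was 0.010, 0.031 and 0.059. Above 0.5 were 3, 3 and 4 genes and below -0.5 were 1, 0 and 0, where 2.37%, 2.62% and 2.24% of all probes were above and 2.25%, 1.76% and 2.00% below. TIGAR, a fructose-bisphosphatase that lowers flux through glycolysis, had 0.64, 0.73 and 0.51. PFKFB2, which makes the activator of phosphofructokinase, had 0.63, 0.75 and 0.57. ENO3, the enolase of muscle, had 0.34, 0.49 and 0.63. Over the arrays limma called 5 genes higher and 2 lower, beside 7.29% and 6.90% of all genes, so 2 lower among 30 is near that share. Those called higher included these 3 and PFKFB3, named after its values were seen. The adjusted p ran from 0.00494 for PFKFB2 to 0.0226 for PFKFB3.

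The 2 lower ones, named after their values were seen, were LDHA, which turns pyruvate into lactate, and SLC16A1, a lactate transporter. LDHA had -0.38, -0.32 and -0.40 (mean -0.36 ± 0.036, SE, n = 3; adjusted p = 0.00963 by limma). SLC16A1 had -0.45, -0.38 and -0.31 (mean -0.38 ± 0.043; adjusted p = 0.0121 by limma). Their sizes were like that of ENO1. The hexokinase HK2 had 0.50, -0.11 and 0.46 and was not called (adjusted p = 0.326 by limma). HKDC1, a hexokinase-like gene, had -0.59, 0.090 and -0.33 and was the widest of the 30 in its response, at 1.29 in U87WT and 0.61 in U87Mut from FBS-free medium to IGF1 and at -1.40 and -0.98 from IGF1 to IGF1 with OSI906.

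Genes known for their abundance or used as references, 20 in all, spread more widely than the enzymes. Their median was 0.13, 0.29 and 0.18 (0.83 after IGF1 with the background fitted on all spots), with 6, 6 and 8 genes above 0.5 and 1, 0 and 2 below -0.5. ACTB, cytoplasmic actin, had 1.17, 0.80 and 0.71 (mean 0.89 ± 0.096, SE, n = 3; adjusted p = 0.0113 by limma). RPS18, a ribosomal protein, had 0.99, 0.92 and 0.83. The intermediate filament VIM had 1.15, 0.29 and 0.77, and EEF2, an elongation factor, had -0.72, -0.40 and -0.60. By limma 7 were called higher and 3 lower, beside 7.29% and 6.90% of all genes. Bright probes were called more often: of the 963, 956 and 967 with a mean log2 brightness of 13 or more, 240 were higher and 89 lower. Each of the 9 enzymes lay closer to 0 on every array than ACTB did.

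Because several enzymes are known HIF1 targets, 20 further genes induced by hypoxia were listed. Their median was -0.073, -0.18 and -0.11 (-0.35 after IGF1 with the background fitted on all spots), with 5, 6 and 3 genes below -0.5 and 0, 0 and 2 above 0.5. NDRG1 had -1.26, -1.64 and -0.89, and ANKRD37 had -0.73, -0.90 and -0.60. PDK1, a kinase that inhibits the pyruvate dehydrogenase complex, had -0.51, -0.52 and -0.44. By limma 5 were called lower (NDRG1, ANKRD37, PDK1, ANGPTL4 and, named after its values were seen, BNIP3) and 0 higher, beside 6.90% and 7.29% of all genes. VEGFA, the angiogenic factor, had -1.13, -1.36 and -0.051 and was not called (adjusted p = 0.154 by limma). With OSI906 ADM was at 1.09 and MXI1 at 0.67.

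**Figure D5:**
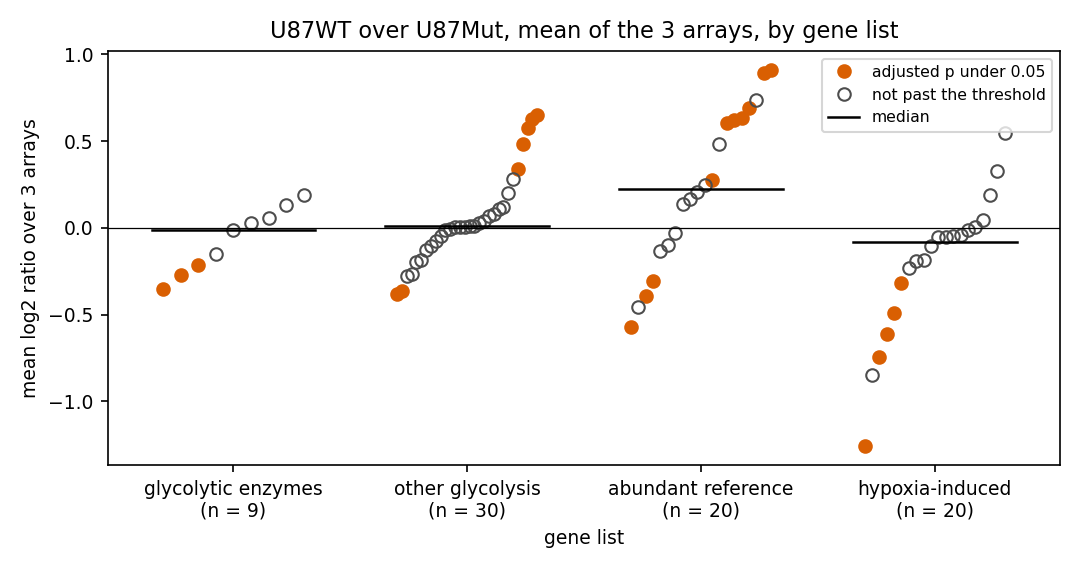
Mean log2 ratio of U87WT over U87Mut over the 3 arrays for each gene of 4 lists, sorted within a list; filled points have an adjusted p under 0.05 by limma over all probes, and horizontal bars are medians. The enzymes run from -0.35 to 0.19, with 3 filled points below 0, and the other lists reach further on one or both sides.

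GAPDH, TPI1 and ENO2 lie close together on chromosome 12. In the GRCh38.p14 annotation 24 genes stand between GAPDH and TPI1 and 5 between TPI1 and ENO2. Of these 29 genes, 23 have a named probe and 22 were well above background. The mean ratios of these 22 ran from -0.60 to 0.74 with a median of 0.020. By limma 4 were called higher and 1 lower, beside 7.29% and 6.90% of all genes. The neighbors thus lay on both sides of 0, and a cause shared by the region was not tested.

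The genes most like GAPDH over the 6 channels were ROCK2, SSR1, BICRA, FBXO15 and TAL2. Likeness was the root mean square difference of log2 brightness after each gene's own mean was taken off, over 15099 genes, and it was 0.015 for ROCK2 and 0.025 for TAL2. Among the other enzymes PGAM1 came nearest, at rank 2281, and ENO2 was furthest, at rank 13389. The distances of the nearest genes lay below the median spot SDs of brightness, 0.12, 0.16 and 0.14 on the 3 arrays. Whether the ranks would hold on other arrays was not tested. The 6 channels come from 3 arrays, and the other enzymes were compared with GAPDH alone.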

How the data were processed

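RNA of each clone was hybridized to 3 Agilent SurePrint G3 Human Gene Exp v3 arrays. The authors deposited scanner intensities, the median brightness of 62976 spots and of their local background in each channel, without normalization, with marks for flagged spots. Per the file headers, a log10 ratio from the scanner's processed signals is also given. The authors further deposited a table of log2 ratios that they background-corrected and normalized with limma; its medians are -0.0066, -0.0074 and -0.0030. From the intensities, ratios were derived with limma (version 3.58.1, R version 4.3.3): normexp (offset 50) without the 384, 572 and 5 spots flagged as not uniform, loess (span 0.3, 4 iterations), Aquantile between arrays, control and outlier spots left out, and the spots of a probe averaged. Of the probes, 34892 were named through RefSeq (GRCh38.p14), and a gene is given by its brightest probe unless stated. A ratio past 0.5 has no p. The clone difference was tested with lmFit and eBayes of limma and an intercept alone, and p-values were adjusted over 58201 probes by Benjamini-Hochberg (threshold 0.05). Steps were tested on simulated data. All arrays lie on 1 slide and were scanned together. The number of arrays limits the precision. Alternatives were other offsets and fits, no background correction, median centering, other normalization between arrays, and scanner and deposited ratios. Further ones were other limits, averaging a gene's probes, only probes well above background on every array, eBayes with a trend and leaving out each array. Normexp at an offset of 20 without normalization between arrays was added after the data were seen. Named genes are the enzymes, list genes past 0.5 on an array or the 5 widest, and the 5 genes most like GAPDH; 1 gene that the rule names is not reported here. Members, lists and the background fit without flagged spots were chosen with earlier results of these data known.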

Additional observations from a re-analysis of the deposited data

Results flagged for a closer look

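From FBS-free medium to IGF1, 3 enzymes had normalized log2 brightness that differed in opposite directions in the clones. GAPDH was at -0.030 in U87WT and 0.097 in U87Mut, ENO2 at -0.051 and 0.0066, and PGAM1 at 0.052 and -0.062. With 1 array a condition the difference between the clones was not tested.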

How the results depend on the processing

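With the background fitted on all spots, 1 enzyme was above 0.5 and 1 below -0.5 after IGF1, 0 were called lower, 675 probes were called in all and the median response of U87Mut to IGF1 was -0.17. The deposited ratios likewise put 1 above and 1 below after IGF1, with 0 called lower and 785 probes called. At an offset of 0, 0 were called lower among 695 probes called, and without background correction 1 was. With median centering in place of loess, the median enzyme ratio was 0.60 after IGF1 and 0.17 with OSI906, 6 and 1 enzymes were above 0.5, 0 were called lower, TPI1 reversed to 0.10, 0 probes were called by limma (5182 at an unadjusted p under 0.05), and median responses were 0.38 in U87WT and -0.41 in U87Mut to IGF1 and -0.31 and 0.11 from IGF1 to OSI906. With scanner ratios the median in FBS-free medium was -0.18, 1 enzyme was below -0.5 with OSI906, 0 were called lower and 0 probes were called (10986 at an unadjusted p under 0.05). Without normalization between arrays, median responses to IGF1 were -0.29 in U87WT and -0.27 in U87Mut. At 0.5 SD of each array, 1, 2 and 1 enzymes were above and 3, 3 and 4 below the limit. Here and under the other alternatives, the share of all probes past the limit was not taken, so such counts have no background. With an eBayes trend 1 enzyme was called lower. Leaving out 1 array gave 0 to 3 called lower and 737 to 6284 probes called. TPI1 also lost its call at an offset of 20, with or without normalization between arrays, and with scale between arrays. Its call was lost too among only the probes well above background for both dyes on every array. The adjusted p of TPI1 by limma in these fits lay between 0.0546 and 0.0916. Over all alternatives the adjusted p ran from 0.00170 to 0.985 for ENO1, from 0.0168 to 0.828 for ENO2 and from 0.0430 to 0.925 for TPI1. The cause was not tested for any of these changes, apart from the fewer arrays of a left-out condition. The alternative with the mean signal of spots was not run, since no mean signal was among the columns read here. No paired analysis was possible because each group has 1 array and the groups thus share no second replicate number; the clones are paired within each array through the ratio itself.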
